A study of Mus musculus with 13 samples.

Results

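The comparison sets 9 hippocampal libraries from treated 5xFAD mice, 4 given Aducanumab and 5 given ACLP-NT, against 4 libraries from 5xFAD mice given saline, and asks what the treated animals have in common. It takes in all 13 of the 13 libraries, chosen by their treatment labels, and 22065 genes. All animals carry the 5xFAD transgenes, human amyloid precursor protein and presenilin genes with familial Alzheimer's disease mutations, which are driven by the neuronal Thy1 promoter, so amyloid forms in saline animals too. Aducanumab is an antibody to aggregated amyloid beta, and ACLP-NT is a preparation known here only by its code name, in a series whose title speaks of a nanomedicine and of lysosomes in microglia. The labels number the animals: 18, 19, 32 and 38 for saline, 24, 50, 56 and 58 for Aducanumab, and 17, 27, 49, 53 and 55 for ACLP-NT. The labels give no sex, age, dose, route or treatment time, and no group is wild-type, so the reference for each value is a 5xFAD mouse given saline. The labels name no control antibody and no empty carrier.

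Microglia, the resident macrophages of the brain, hold a homeostatic programme through the receptors Csf1r, Cx3cr1 and P2ry12 and the transcription factor Sall1, and around amyloid plaques they take up a disease-associated state marked by Trem2, Cst7 and Clec7a. Glucocorticoids are the adrenal hormones of stress and of the daily cycle. They enter the brain and act through 2 nuclear receptors that bind DNA and raise a known set of targets, among them Sgk1, Fkbp5, Per1 and Tsc22d3, in neurons and glia of the hippocampus.

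Total counts ran from 53642019 to 69734713 per library. Levels are normalised counts scaled to the library total (CPM) and differences are log2 fold changes of treated over saline. Means are printed ± SD over the saline (n = 4) or the treated libraries (n = 9). Markers of tissue next to the hippocampus stood at unequal levels. The choroid plexus list summed to between 326 and 8384 CPM in saline and between 349 and 8838 CPM in treated libraries. Markers of neocortex summed to between 384 and 521 CPM in saline and between 338 and 436 CPM in treated libraries, highest in saline 18. Aducanumab 50 had the highest thalamus and midbrain sum, 422 CPM against at most 304 CPM elsewhere, and Aducanumab 58 the highest meningeal fibroblast sum, 2006 CPM against at most 1191 CPM.

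No gene passed the adjusted threshold of 0.05 in edgeR or limma. The edgeR quasi-likelihood test called 0 of 22065 genes (smallest adjusted p 0.481), and limma on log2(FPKM + 1) also called 0, with 1500 genes at an unadjusted p below 0.05. At an unadjusted p below 0.05 edgeR had 1358 genes (6.15%), 584 with a higher value in treated libraries (2.65%) and 774 with a lower one (3.51%). DESeq2 called 23 of 27085 genes (0.0849%), 13 higher and 10 lower. Among them were Gpt2, Gpd1, Fam107a, Hif3a and Mc4r on the higher side and Sla, Etv6, Grn, Cav2, Ikzf1 and P2ry12 on the lower. The largest DESeq2 log2 fold changes were those of Gm49685 (6.19), ENSMUSG00000121402 (6.11) and Rnase2b (5.65). Gm49685 and ENSMUSG00000121402 overlapped between the arms, and Rnase2b was not among the genes tested in edgeR. Of the 23 genes, 14 had no overlap. In 42 genes (0.190%) all 9 treated libraries lay above all 4 saline libraries, and in 51 genes (0.231%) all 9 lay below. Every gene named from here on is a description under edgeR, since none passed its adjusted threshold.

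The 12 genes with the smallest unadjusted p on the higher side included Gpt2, Gpd1, Plekhf1, Fam107a, Hif3a, Mc4r, B4galt4, Tnxb, Sgk1, Zfp189 and Errfi1. On the lower side they were Sla, Etv6, Grn, Cav2, Plxdc2, P2ry12, Sall1, Rps12, Ikzf1, Hhex, Plxdc1 and Ptgs1. Of these 24 genes, 12 had no overlap between treated and saline libraries and 15 were called by DESeq2, 2 measures taken from the contrast that ranked the genes.

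The promoters of 4 of these genes are printed here because the higher side holds targets of the glucocorticoid receptor, whose response element can be looked for by its letters. The windows hold the 250 bases before a RefSeq transcript start in GRCm38.p6, 5′ to 3′ on the gene's strand. Gpt2 and Grn were taken as leading genes of each direction, while Fam107a and Sgk1 were chosen after their values and sequences had been seen. Capitals mark the response element in the form GNACANNNTGTNC, which reads the same on both strands.
Sgk1, chr10:21993640-21993889, plus strand: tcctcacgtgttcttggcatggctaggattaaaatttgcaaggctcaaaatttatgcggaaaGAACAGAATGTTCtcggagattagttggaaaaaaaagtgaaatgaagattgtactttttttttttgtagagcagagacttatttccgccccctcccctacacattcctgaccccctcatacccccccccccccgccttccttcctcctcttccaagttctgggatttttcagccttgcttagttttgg
Fam107a, chr14:8309778-8310027, minus strand: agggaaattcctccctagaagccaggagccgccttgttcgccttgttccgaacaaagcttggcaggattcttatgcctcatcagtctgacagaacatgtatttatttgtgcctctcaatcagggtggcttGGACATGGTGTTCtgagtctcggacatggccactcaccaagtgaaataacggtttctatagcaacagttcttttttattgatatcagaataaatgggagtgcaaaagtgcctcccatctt
Gpt2, chr8:85492326-85492575, plus strand: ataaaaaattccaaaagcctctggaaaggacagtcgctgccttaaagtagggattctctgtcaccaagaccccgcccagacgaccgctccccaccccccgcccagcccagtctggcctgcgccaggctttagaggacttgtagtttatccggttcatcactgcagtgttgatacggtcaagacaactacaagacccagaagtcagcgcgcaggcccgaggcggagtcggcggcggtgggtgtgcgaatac
Grn, chr11:102430257-102430506, plus strand: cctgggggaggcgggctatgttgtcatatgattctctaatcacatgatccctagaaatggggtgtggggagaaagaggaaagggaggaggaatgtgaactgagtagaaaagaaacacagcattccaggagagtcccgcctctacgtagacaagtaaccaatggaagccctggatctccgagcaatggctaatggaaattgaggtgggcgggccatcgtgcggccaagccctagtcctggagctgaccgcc

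Where a gene had several RefSeq starts, the window with the most matches to the response element was printed. The Sgk1 window, picked in this way from 6 starts, holds GAACAGAATGTTC ending 175 bases before the end of the window. The Fam107a window, picked in the same way from 3 starts, holds GGACATGGTGTTC ending 107 bases before the end. Over all 32851 windows of this length 127 (0.387%) held the motif, and over genes 119 of 27025 (0.44%) did. Of the 24 leading genes 18 had a window, and the motif was in 2 of them, Fam107a and Sgk1. Among the 26 glucocorticoid targets described in the next paragraphs 21 had a window and 3 held the motif, Map3k6, Mt1 and Sgk1. A match of letters is a description, not a site shown to be bound. Other letters were searched on both strands, with shares given over all windows and then over all genes. AGAACA, the half-site that can be part of the longer motif, was in 16.1% and 18.2%, and in 5 of 18 leading genes. CACGTG was in 6.02% and 6.86% (2 of 18 leading genes). GAGGAAGT, a PU.1 site, was in 2.44% and 2.79% (1 of 18).

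Targets of the glucocorticoid receptor were the list with the most members on the higher side. Of 26 tested, 25 had a higher value in treated libraries, 11 of them at an unadjusted p below 0.05, against 2.65% of all genes, and 0 were lower at that p. Like all 38 lists, it was chosen with earlier results of these data known, so the count is a description. The list holds Gpd1 and, beside targets, the receptor genes Nr3c1 and Nr3c2. The median log2 fold change of the list was 0.20, against 0.00301 over all genes. Each treatment's own median against the shared saline libraries was 0.20 for Aducanumab and 0.21 for ACLP-NT. With any single library left out the count ran from 10 to 15 and the median from 0.17 to 0.23. It was 9 with the choroid plexus score as a covariate, 8 with the neocortex score and 12 without Aducanumab 50 and 58 together.

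Sgk1, a kinase that glucocorticoids induce and that regulates ion channels, had the largest fold of the 11. The deposited table places it on chromosome 10 from 21758083 to 21875797 (ENSMUSG00000019970). It stood at 76.1, 66.9, 81.5 and 104 CPM in saline, at 134, 122, 103 and 160 CPM in Aducanumab, and at 121, 112, 153, 186 and 95.1 CPM in ACLP-NT. Saline 38 reached into the treated range, and ACLP-NT 55 and Aducanumab 56 were the treated libraries below it. Treated over saline, the log2 fold change was 0.68 (SE 0.164, edgeR adjusted p 0.566), with 0.66 for Aducanumab and 0.70 for ACLP-NT.

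Gpd1, the cytosolic glycerol 3-phosphate dehydrogenase that links glycolysis to lipid synthesis, is in the list as a target in brain and had no overlap. Its levels were 103, 94.9, 109.9 and 101 CPM in saline, 128, 129, 127 and 113 CPM in Aducanumab, and 117, 117, 117, 125 and 119 CPM in ACLP-NT. The lowest treated library, Aducanumab 58, lay just above the highest saline library, saline 32. Its log2 fold change was 0.25 (SE 0.0458, edgeR adjusted p 0.481).

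Errfi1, a feedback inhibitor of the epidermal growth factor receptor, was at 36.3 ± 4.88 CPM in saline against 43.7 ± 1.89 CPM in treated libraries. Saline 32, at 42.6 CPM, was the saline library within the treated range of 39.6 to 45.8 CPM. Ddit4, an inhibitor of mTOR signalling, was at 42.4 ± 5.66 against 51.9 ± 4.12 CPM, and its lowest treated library was Aducanumab 56 at 45.5 CPM. Fkbp5, the co-chaperone that restrains the glucocorticoid receptor, was at 52.8 ± 3.69 against 60.8 ± 4.71 CPM. Its log2 fold change was 0.20 (SE 0.0625), and the treated libraries Aducanumab 50 and 58, at 53.5 and 55.2 CPM, lay within the saline range. Klf9, a transcription factor induced by glucocorticoids, was at 169, 148, 155 and 153 CPM in saline, with a treated range of 163 to 195 CPM. For Klf9 the treatments lay apart: its log2 fold change was 0.12 for Aducanumab and 0.23 for ACLP-NT, and the difference of -0.11 had a 95% interval of -0.22 to -0.0088. That difference did not pass after adjustment over all genes (edgeR adjusted p 1).

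Per1, a clock gene with a direct glucocorticoid input, ran from 59.8 to 70.6 CPM in saline and from 67.3 to 79.5 CPM in treated libraries. Tsc22d3, the glucocorticoid-induced leucine zipper, ran from 41.3 to 49.1 CPM in saline and from 40.8 to 64.9 CPM in treated libraries. In Tsc22d3 Aducanumab 56 (40.8 CPM) and ACLP-NT 55 (45.5 CPM) sat with saline and the other 7 treated libraries lay above all saline libraries. The remaining members at that p were Zbtb16 (log2 fold change 0.18), Arrdc2 (0.24) and Mt2 (0.18). Of the receptors themselves, Nr3c1, the glucocorticoid receptor, had a log2 fold change of -0.11 and was the single member below 0, and Nr3c2, the mineralocorticoid receptor, was at 0.13. Neither reached an unadjusted p of 0.05. Dusp1, Mt1, Pdk4 and Hsd11b1 lay between 0.018 and 0.084.

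The mean of the list's centred log2 values gives a score per library. It lay between -0.22 and -0.075 in saline and between -0.085 and 0.21 in treated libraries, and ACLP-NT 55 was the treated library within the saline range. The sources used here give neither the time of day of sampling nor the handling of the animals. Of 16 clock genes tested, a set chosen after values had been seen, Per1 and Per2 were higher at an unadjusted p below 0.05 and none was lower, and the median was -0.014. Per2 did not overlap, though its lowest treated library (Aducanumab 58) and its highest saline library (saline 38) were both at 47.9 CPM to 3 digits. Bmal1, Dbp, Nr1d1 and Nr1d2, genes of the same clock, had log2 fold changes of -0.081, -0.11, -0.13 and 0.0085.

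**Figure D1:**
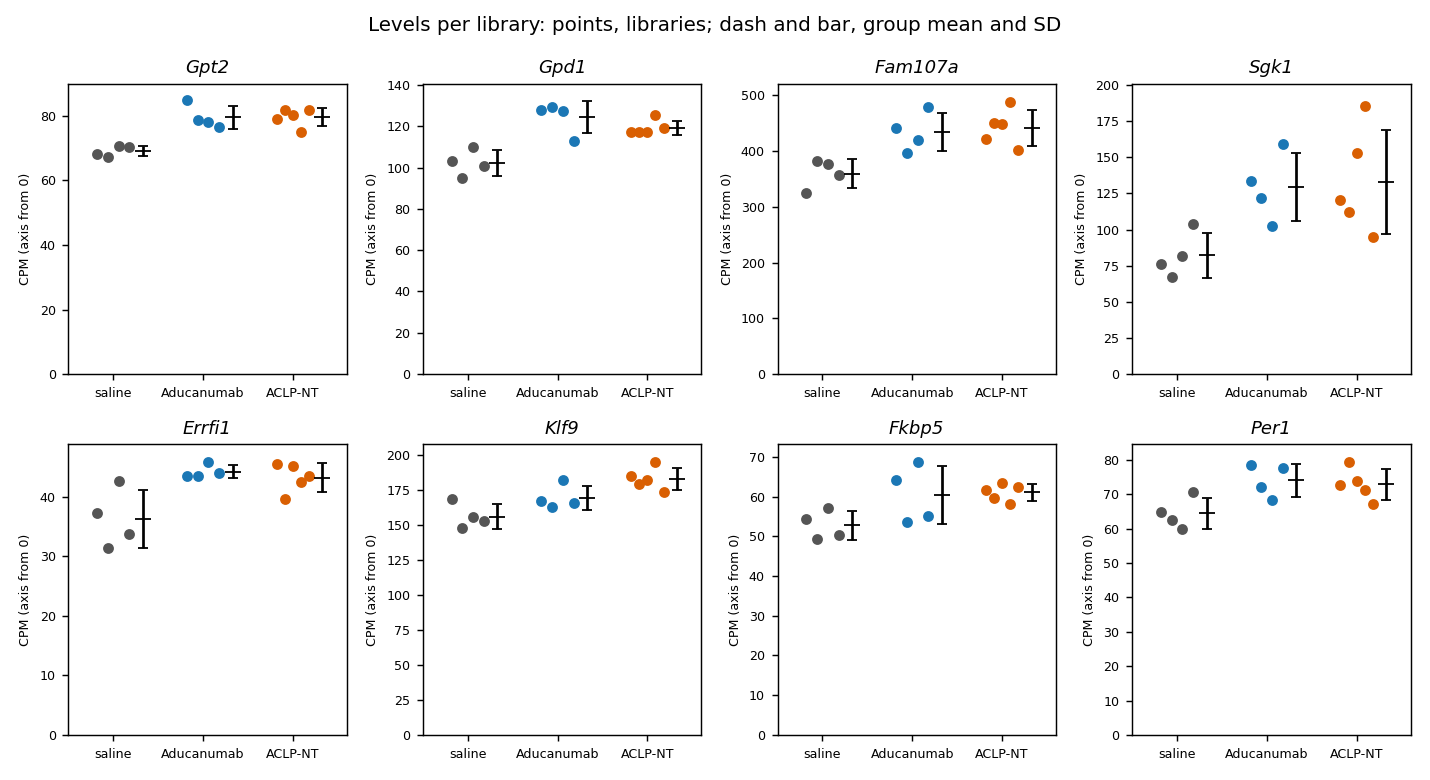
CPM per library (vertical axes from 0) for Gpt2, Gpd1, Fam107a and 5 glucocorticoid targets, with saline in grey, Aducanumab in blue and ACLP-NT in orange; dashes and bars are group means and SD. Gpt2, Gpd1 and Fam107a have every treated point above every saline point, while in the other 5 genes the ranges meet.

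Gpt2 had the smallest p of all genes. It encodes the mitochondrial alanine transaminase, which makes alanine and 2-oxoglutarate from pyruvate and glutamate. The deposited table places it on chromosome 8 from 86219205 to 86254189 (ENSMUSG00000031700). Levels were 68.1, 67.3, 70.6 and 70.4 CPM in saline, 84.9, 78.8, 78.1 and 76.5 CPM in Aducanumab, and 79.0, 81.8, 80.3, 75.1 and 81.9 CPM in ACLP-NT. The groups did not overlap, and the step from the highest saline library to the lowest treated one was from 70.6 to 75.1 CPM. On the log2 scale the fold change was 0.20 (SE 0.0356, edgeR adjusted p 0.481, DESeq2 adjusted p 0.00594), 0.20 for each treatment alone. The estimated difference between Aducanumab and ACLP-NT was -0.0010, with a 95% interval of -0.089 to 0.087. Of the 26 genes of amino acid and glycerol phosphate metabolism, only Gpt2 and Gpd1 were higher at an unadjusted p below 0.05, none was lower, and the median was -0.0083.

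Fam107a, an actin-binding protein raised by stress and enriched in astrocytes, stood at 360 ± 26.1 CPM in saline against 438 ± 31.7 CPM in treated libraries. Its highest saline library, saline 19, was at 382 CPM and its lowest treated library, Aducanumab 50, at 397 CPM. Plekhf1, an adaptor of endosomes and lysosomes, ran from 2.56 to 3.75 CPM in saline and from 4.06 to 7.65 CPM in treated libraries, a log2 fold change of 0.80 (SE 0.161). Hif3a, an alpha subunit of the hypoxia-inducible factors, stood at 4.01 ± 0.781 against 7.14 ± 1.52 CPM. ACLP-NT 55, at 4.47 CPM, was the treated library within the saline range of Hif3a. Mc4r, the melanocortin 4 receptor, stood at 3.20 ± 0.667 against 4.96 ± 0.643 CPM. Other leading genes on this side were B4galt4, a galactosyltransferase (0.24), Tnxb, an extracellular matrix protein (0.38), and Zfp189, a zinc finger protein (0.35).

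Many microglial transcripts had lower values in treated libraries. In a union of the homeostatic, disease-associated, lineage factor and complement lists, 40 of 85 genes tested were lower at an unadjusted p below 0.05, against 3.51% of all genes, and 0 were higher. The count was 23 without saline 32, 25 without saline 38 and between 35 and 49 with each other library left out. As bulk RNA was measured, fewer microglia and less RNA per microglial cell cannot be told apart. The lists share cells, and their members are not independent of each other.

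Among homeostatic microglia genes 13 of 17 tested were lower at that p and 0 higher, with a median of -0.27. The median was -0.27 for Aducanumab and -0.28 for ACLP-NT. With single libraries left out the count ran from 8, without saline 32, to 14, and the median from -0.30 to -0.24. With the neocortex or the choroid plexus score as a covariate the count was 12. P2ry12, the purine receptor of microglial processes, was at 69.4, 61.9, 77.6 and 79.7 CPM in saline, 62.3, 56.8, 54.4 and 59.1 CPM in Aducanumab, and 62.2, 54.8, 64.3, 55.1 and 61.4 CPM in ACLP-NT. Saline 19 lay among the treated libraries and the other 3 saline libraries above them all. P2ry12 thus had a log2 fold change of -0.29 (SE 0.0647, edgeR adjusted p 0.566, DESeq2 adjusted p 0.0485).

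Csf1r, the receptor whose signal keeps microglia alive, did not overlap. It was at 231, 229, 259 and 247 CPM in saline, 220, 189, 198 and 219 CPM in Aducanumab, and 217, 165, 221, 170 and 213 CPM in ACLP-NT. ACLP-NT 27 and 53 were lowest, and the highest treated library, ACLP-NT 49, lay just below saline 19. The log2 fold change was -0.26 (SE 0.0777, edgeR adjusted p 0.614). Cx3cr1, the receptor for the neuronal chemokine fractalkine, was at 108 ± 7.29 against 87.9 ± 10.8 CPM, and P2ry13, another purine receptor, at 26.7 ± 2.17 against 20.5 ± 2.70 CPM. Neither of these overlapped between the arms. Sall1, a transcription factor of microglial identity, ran from 37.5 to 40.5 CPM in saline and from 29.5 to 37.8 CPM in treated libraries, where ACLP-NT 49 alone reached the saline range. Gpr34, a lysophosphatidylserine receptor, had the largest fold of the list, -0.44 (SE 0.110).

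The transcription factors of the microglial and myeloid lineage had 7 of 17 tested members lower at an unadjusted p below 0.05 and 0 higher, with a median of -0.26. Ikzf1, a zinc finger factor of blood-lineage cells, was at 12.6, 11.4, 12.3 and 14.1 CPM in saline, 8.53, 7.30, 8.96 and 9.26 CPM in Aducanumab, and 9.33, 8.24, 10.8, 7.71 and 11.3 CPM in ACLP-NT. ACLP-NT 55 came closest to saline, at 11.3 against 11.4 CPM in saline 19. Its log2 fold change was -0.48 (SE 0.108, DESeq2 adjusted p 0.0485). Hhex, a homeobox factor, was at 4.83 ± 0.501 against 3.21 ± 0.567 CPM, and Tal1, a helix-loop-helix factor, at 3.28 ± 0.450 against 2.21 ± 0.494 CPM, both without overlap. Irf8 and Irf5, interferon regulatory factors of myeloid cells, had log2 fold changes of -0.40 and -0.37.

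Disease-associated microglia genes had 10 of 30 tested members lower at that p and 0 higher, with a median of -0.28. The list score overlapped between the arms, from 0.036 to 0.316 in saline and from -0.547 to 0.319 in treated libraries. Aducanumab 58 had the highest score of the 13 libraries. Here the count moved with single libraries: it was 6 without saline 32, 5 without saline 38 and 16 without Aducanumab 58, while the median stayed between -0.32 and -0.21. Trem2, the lipid receptor needed for that state, was at 84.1, 68.0, 98.9 and 102 CPM in saline, 78.9, 60.4, 58.7 and 83.3 CPM in Aducanumab, and 74.5, 42.9, 77.1, 46.8 and 69.1 CPM in ACLP-NT. The arms overlapped, with saline 19 below 5 treated libraries and ACLP-NT 27 and 53 lowest. The log2 fold change was -0.42 (SE 0.161, edgeR adjusted p 0.706), -0.33 for Aducanumab and -0.51 for ACLP-NT. Their difference of 0.18 had a 95% interval of -0.21 to 0.57.

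Cst7, a cathepsin inhibitor of the plaque-associated state, was at 43.2 ± 8.02 against 27.9 ± 9.04 CPM, and the glucan receptor Clec7a at 30.3 ± 3.55 against 20.4 ± 5.40 CPM. In both genes Aducanumab 58 lay among the saline libraries, and in Cst7 ACLP-NT 49 and Aducanumab 24 did too. Axl, a receptor for dying cells, had the smallest p of the list and a log2 fold change of -0.28 (SE 0.0741). Apoe, Lpl and Csf1 had values of -0.11, -0.090 and -0.070, and Spp1 and Lgals3 of 0.36 and 0.27, none at an unadjusted p below 0.05. Spp1, a matrix phosphoprotein, reached 48.0 CPM in Aducanumab 58, the library with the highest meningeal sum, against 7.32 to 25.2 CPM in the other 12.

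Complement components and phagocytic receptors had 10 of 21 members lower at that p and 0 higher, with a median of -0.32. The count was 3 without saline 32, 4 without saline 38 and 6 without Aducanumab 50. C3ar1, the receptor for the complement fragment C3a, was at 13.3, 13.9, 14.1 and 14.1 CPM in saline and ran from 6.79 to 14.0 CPM in treated libraries, with a median of 9.27 CPM. The saline libraries were close together and Aducanumab 58 was the treated library among them. C1qa, C1qb and C1qc, the chains of the first complement component, had log2 fold changes of -0.35, -0.38 and -0.28.

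**Figure D2:**
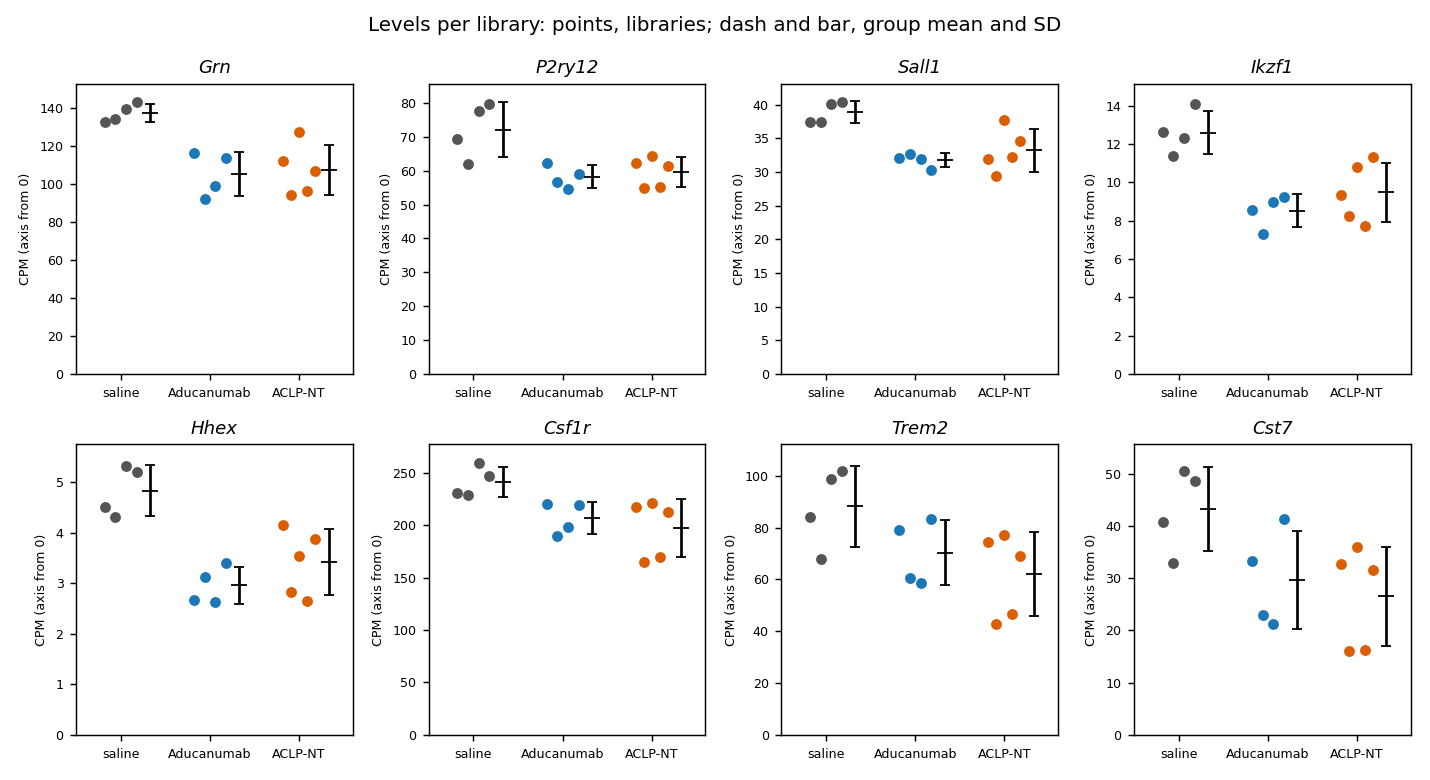
CPM per library (vertical axes from 0) for 8 genes expressed by microglia, with saline in grey, Aducanumab in blue and ACLP-NT in orange; dashes and bars are group means and SD. Grn, Ikzf1, Hhex and Csf1r have every treated point below every saline point, while P2ry12, Sall1, Trem2 and Cst7 overlap.

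Grn encodes progranulin, the secreted precursor of the lysosomal granulins, which microglia express strongly. The deposited table places it on chromosome 11 from 102321141 to 102327635 (ENSMUSG00000034708). It was at 133, 134, 139.7 and 143 CPM in saline, 117, 92.3, 99.3 and 114 CPM in Aducanumab, and 112, 94.6, 127, 96.7 and 107 CPM in ACLP-NT. Every treated library lay below every saline library, and ACLP-NT 49 was the highest of the treated. Grn had a log2 fold change of -0.37 (SE 0.0734, edgeR adjusted p 0.530, DESeq2 adjusted p 0.0065). Each treatment stood near the same value, -0.38 for Aducanumab and -0.36 for ACLP-NT, and their difference had a 95% interval of -0.21 to 0.16.

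The lysosomal list as a whole, 54 enzymes and membrane proteins, had 16 members lower at an unadjusted p below 0.05 and 0 higher, with a median of -0.071. The count was 10 without saline 32 and 9 without saline 38. Among the 16 were Grn, Ctsb, Hexa, Cd68, Pla2g15, Man2b1, Ctsz, Lgmn, Naglu, Mcoln1, Ctsa, Gusb, Ctss and Ctsd. Ctsb, Cd68, Ctsz and Ctsd are also in the disease-associated list. Ctsd, the main aspartic protease of lysosomes, ran from 1038 to 1492 CPM in saline and from 747 to 1299 CPM in treated libraries, with a log2 fold change of -0.31 (SE 0.134). Mcoln1, the calcium channel of the lysosomal membrane, had a smaller value of -0.11 (SE 0.0409). Lamp1, the membrane protein found in lysosomes of every cell, was at -0.10 (SE 0.0631).

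The proton pump that acidifies lysosomes showed no such shift in count. Of 22 V-ATPase subunits 0 were higher and 0 lower at an unadjusted p below 0.05, the values ran from -0.058 to 0.055 and the median was -0.0035. Of 30 autophagy and TFEB family genes also 0 were higher and 0 lower, with a median of -0.013. Tfeb, a transcription factor for lysosomal genes, was at 10.8 ± 1.03 against 10.5 ± 1.39 CPM. Of 25 genes of amyloid processing and clearance 1 was higher at that p, Col25a1, and 0 lower. App stood at 1244 ± 80.6 against 1274 ± 36.8 CPM, and the sources used here do not say whether reads of the human transgene were counted with it.

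**Figure D3:**
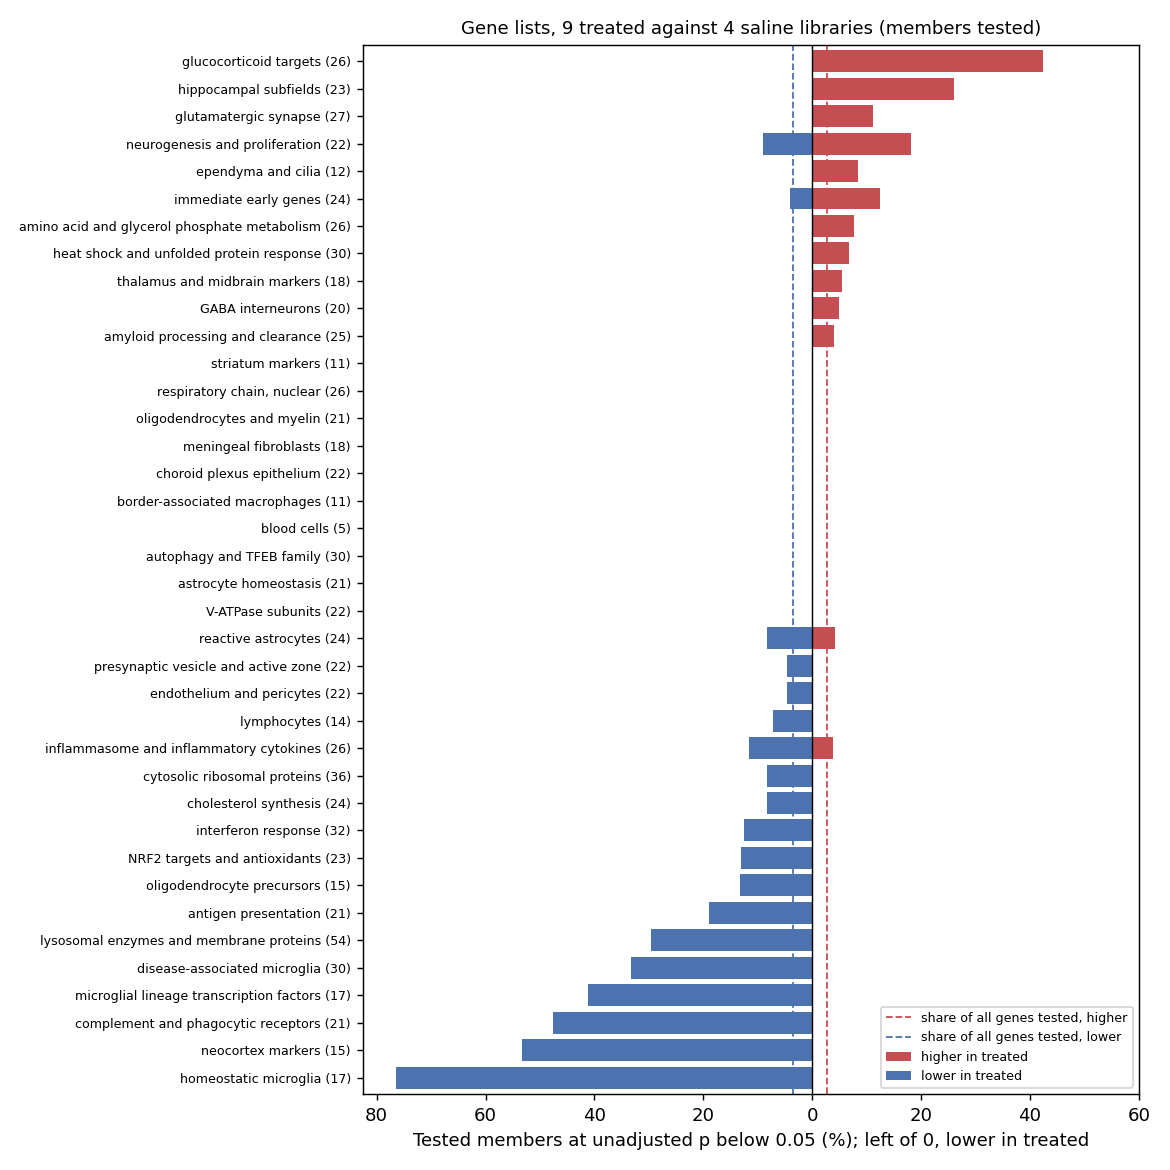
Share of tested members at an unadjusted p below 0.05 in each of 38 gene lists (horizontal axis, %), to the right of 0 for members higher in treated and to the left for members lower; dashed lines mark the share of all 22065 genes, 2.65% and 3.51%. Glucocorticoid targets extend farthest to the right and homeostatic microglia farthest to the left, followed by neocortex markers.

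Other immune lists lay on the same side with fewer members at that p. Over all genes the median log2 fold change was 0.00301, with 3.51% lower and 2.65% higher at an unadjusted p below 0.05. All 32 interferon response genes tested had a lower value, with a median of -0.25. Members of a list are not independent, so their shared direction is not a set of separate results. At an unadjusted p below 0.05, 4 of the 32 were lower (Ifit2, Ifi204, Ifi207 and Gbp5). That count was 0 without saline 38, 1 without saline 19, 2 without ACLP-NT 27 or 53, 7 without ACLP-NT 49 and 9 without saline 18. Antigen presentation had 4 of 21 lower (Psmb9, Psmb10, B2m and Tap1), and the count was 1 without saline 32, 2 without saline 19 or 38, 7 without saline 18 and 11 without Aducanumab 58. With the choroid plexus score as a covariate 11 antigen presentation and 8 interferon genes were lower at that p, and with the neocortex score 2 and 1. Psmb9, a subunit of the immunoproteasome, ran from 3.29 to 5.24 CPM in saline and from 1.84 to 3.57 CPM in treated libraries, or -0.65 on the log2 scale (SE 0.167). In the inflammasome and cytokine list Il1a, Pycard and Tlr7 were lower and Il1r1 higher at that p, of 26 tested. Its lower count was 1 without saline 32 or 38 and 6 without Aducanumab 58, and its higher count ran from 0 to 2 with single libraries left out. Both lists include close paralogs, and the sources used here do not say how their shared reads were counted.

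Of the remaining lower leaders, 2 are factors or adaptors without a list here. Sla, a Src-like adaptor of lymphoid and myeloid cells, was at 11.9, 11.6, 8.64 and 9.73 CPM in saline, 5.98, 8.23, 5.81 and 7.55 CPM in Aducanumab, and 6.01, 7.93, 7.67, 6.24 and 6.85 CPM in ACLP-NT. The arms did not overlap, and saline 32 lay nearest to the treated libraries. Saline 18 and 19, highest in Sla, also had the highest neocortex scores of the 13 libraries, 0.52 and 0.61. Aducanumab 56, lowest in Sla, had the lowest neocortex score, -0.52, and saline 32 was at -0.28. The relation of Sla to that score was not tested. The log2 fold change of Sla was -0.59 (SE 0.116, edgeR adjusted p 0.530, DESeq2 adjusted p 0.00594). Etv6, an ETS-family repressor, varied little within each arm. It stood at 17.2 ± 0.355 CPM in saline against 14.0 ± 0.822 CPM in treated libraries, without overlap. Cav2, a caveolin of membrane pits, stood at 32.8 ± 1.04 against 27.3 ± 1.82 CPM, also without overlap. Plxdc1 and Plxdc2, related membrane proteins with a plexin domain, were at -0.60 (SE 0.144) and -0.32 (SE 0.0682) on the log2 scale. Ptgs1, the constitutive cyclooxygenase, was at -0.26 (SE 0.0630), and Rps12, a ribosomal protein with pseudogenes, at -0.29 (SE 0.0645).

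Markers of tissue position also lay apart between the arms, and these values stand beside all results above. Of 15 neocortex markers 8 were lower at an unadjusted p below 0.05 and 0 higher, with a median of -0.36. Without saline 18 the count was 3 and the median -0.25, and without saline 19 they were 4 and -0.24. Tbr1, a transcription factor of cortical glutamatergic neurons, was at 56.5, 48.3, 35.3 and 38.9 CPM in saline and ran from 30.1 to 41.6 CPM in treated libraries, with a median of 34.5 CPM. Saline 18 and 19 stood above all treated libraries and saline 32 and 38 within them. Of 23 markers of hippocampal subfields 6 were higher (Dock10, Tdo2, Grik4, Il16, Amigo2 and Dsp) and 0 lower, with a median of 0.17. That count was 3 without saline 18 or 19, 10 without saline 32, and 1 with the neocortex score as a covariate, where the median was 0.049. With that covariate 830 of all genes reached an unadjusted p below 0.05 in edgeR in place of 1358, with the smallest adjusted p at 1. With the choroid plexus score as a covariate 1406 genes reached that p, and without Aducanumab 50 and 58 together 1779 of 21767 did. Beyond these settings the part of tissue position in the pooled result was not tested.

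Of 22 choroid plexus genes 21 had a higher value in treated libraries, and 0 reached an unadjusted p below 0.05. Their median was 0.76, against 0.00301 over all genes. Ttr, the main transcript of that epithelium, was at 21.0, 485, 76.2 and 4482 CPM in saline, 616, 48.6, 4106 and 4556 CPM in Aducanumab, and 1949, 1564, 3360, 4500 and 48.3 CPM in ACLP-NT. High and low libraries occurred in all 3 groups. Without saline 38, the saline library with the highest choroid plexus sum, the median was 2.85 and 20 of the 22 genes were higher at that p.

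**Figure D4:**
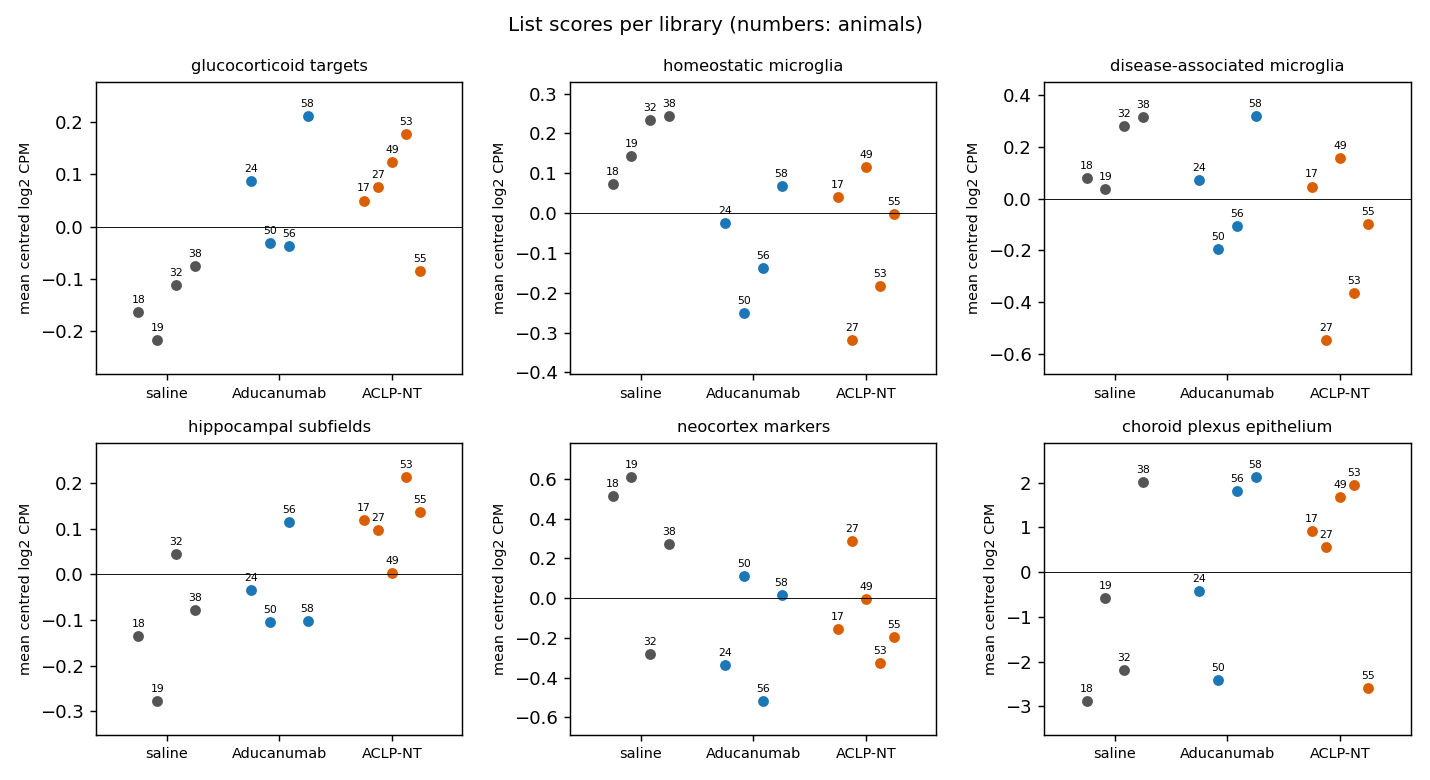
List scores per library, the mean of centred log2 CPM over the members (vertical axes, each with its own scale), for 6 gene lists, with the animal number above each point. The glucocorticoid scores of saline are at most -0.075, and ACLP-NT 55 (-0.085) is also below that. The homeostatic microglia scores of saline are at least 0.073, and ACLP-NT 49 (0.115) is also above that. The neocortex scores of saline 18 and 19 are the highest of the 13 libraries.

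Aducanumab and ACLP-NT can be compared with each other without the saline libraries. Over all genes edgeR called 0 between them, with the smallest adjusted p at 1, and 716 (3.24%) were at an unadjusted p below 0.05, while DESeq2 called 3. Among the 24 leading genes every 95% interval of the difference included 0. The widest were those of Hif3a (-0.32 to 0.54) and Sgk1 (-0.43 to 0.35), and the narrowest was that of Gpt2, so a p that missed the threshold does not show that the treatments act alike. As both treatments were set against the same saline libraries, their values side by side are not 2 independent results.

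Col25a1, a collagen found in plaques, stood at 61.7 ± 4.79 CPM in saline. It was at 76.8, 85.5, 77.7 and 81.5 CPM in Aducanumab and at 68.0, 63.2, 72.7, 57.9 and 67.3 CPM in ACLP-NT. All Aducanumab libraries lay above all others, and the difference of 0.29 had a 95% interval of 0.15 to 0.43, with an edgeR adjusted p of 1 over all genes. Reactive astrocyte genes had a median of 0.056 in Aducanumab and -0.30 in ACLP-NT. Of these, 6 of 24 differed between the treatments at an unadjusted p below 0.05, against 3.24% of all genes. That was the highest such count of the 38 lists. Meningeal fibroblast genes had medians of 0.34 and -0.11 in the same order. Aducanumab 58 had the highest score of the 13 libraries in both lists, 0.63 for reactive astrocytes and 1.31 for meningeal fibroblasts, and its part in the result was not tested. Gfap, the filament protein of astrocytes, was at 1494 ± 284 CPM in saline against 1202 ± 227 CPM in treated libraries, with -0.18 for Aducanumab and -0.43 for ACLP-NT. Their difference of 0.25 had a 95% interval of -0.098 to 0.60, which includes 0. Thalamus and midbrain markers had medians of 0.46 and 0.073, and 5 of 18 differed at an unadjusted p below 0.05, the next highest count of the lists. Aducanumab 50 was the library with the highest sum.

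**Figure D5:**
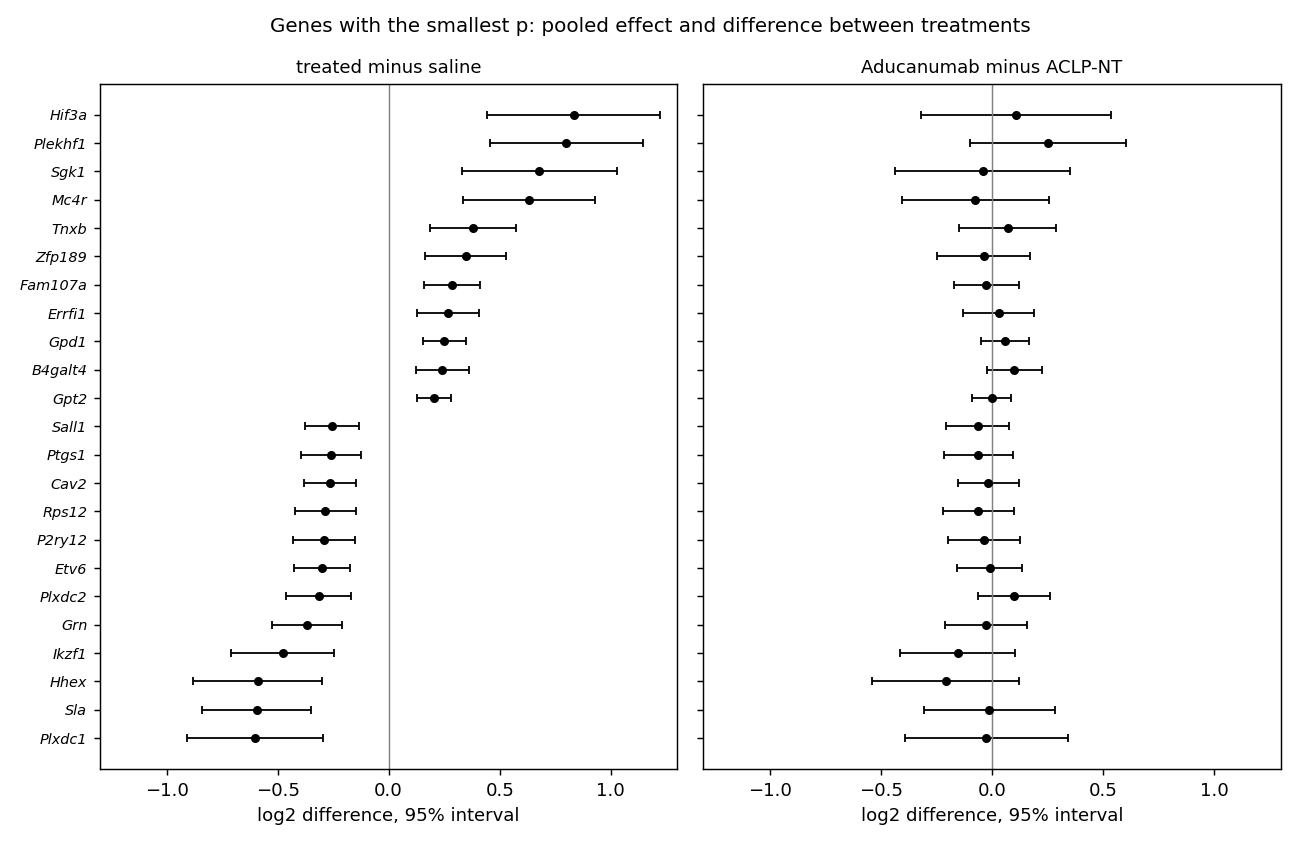
Log2 differences with 95% intervals (horizontal axes) for 23 of the 24 genes with the smallest p, treated minus saline on the left and Aducanumab minus ACLP-NT on the right. All 23 intervals on the right include 0, and the genes were ranked on the values on the left.

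The shares of all genes at an unadjusted p below 0.05, 2.65% higher and 3.51% lower, stand beside the counts of the neuronal and metabolic lists. For counts of members with a higher or lower value, the median over all genes was 0.00301, and members of a list are not independent. Immediate early genes of neuronal activity had 3 of 24 higher (Bdnf, Egr4 and Gadd45b) and 1 lower, Fos, which ran from 9.39 to 12.2 CPM in saline and from 7.79 to 9.37 CPM in treated libraries without overlap. Glutamatergic synapse genes had 3 of 27 higher, Grik4 and Gria1 among them. Neurogenesis genes had 4 of 22 higher (Igfbpl1, Eomes, Neurod1 and Draxin) and 2 lower (Stmn1 and Sox2). Eomes rested on Aducanumab 58 and ACLP-NT 49, at 3.71 and 5.59 CPM against at most 0.438 CPM in the other libraries. Cholesterol synthesis genes had a lower value in 21 of 24, 2 of them at that p (Fdps and Mvd), with a median of -0.082. Cytosolic ribosomal proteins had 32 of 36 with a lower value, 3 at that p, and a median of -0.047. Heat shock and unfolded protein response genes had 22 of 30 with a higher value, 2 at that p (Calr and Hsph1). Oligodendrocyte and myelin genes, astrocyte homeostasis genes and nuclear respiratory chain genes had 0 higher and 0 lower at that p, with medians of -0.00099, -0.042 and 0.011. These counts moved in both directions with single libraries left out. Higher immediate early genes numbered 1 without saline 18, 19 or 38, 5 without saline 32 and 6 without Aducanumab 58, and 0 with the neocortex score as a covariate. Higher glutamatergic genes ran from 2 to 6, with 6 without saline 32, Aducanumab 58 or ACLP-NT 49, and were 1 with that covariate. Higher heat shock genes ran from 0, without saline 18, to 9, without saline 38. Lower ribosomal protein genes ran from 0, without saline 38, Aducanumab 50 or 56, or ACLP-NT 27 or 53, to 8, without saline 18. Lower cholesterol synthesis genes ran from 0, without saline 32, to 4, without Aducanumab 24. Lower astrocyte homeostasis genes ran from 0 to 5, with 5 without Aducanumab 58.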

How the data were processed

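Poly(A) RNA from 13 mouse hippocampi was sequenced, 4 of animals given saline, 4 Aducanumab and 5 ACLP-NT. The authors deposited 1 table of 36287 genes with raw read counts and FPKM. Per the file headers the table holds both units side by side, FPKM scaled by gene length and library total and counts not normalized. Per the submitters' processing notes, StringTie 1.3.4d, HISAT2 2.0.4, cutadapt 1.9 and edgeR were used. The sources used here do not give the counter or the genome build, so the table's coordinates were not mixed with the GRCm38.p6 promoters.

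Counts were filtered with filterByExpr (22065 genes), scaled by TMM and tested with edgeR 4.0.16 (glmQLFit and glmQLFTest, 9 treated against 4 saline, two-sided, Benjamini-Hochberg, threshold 0.05). The common biological coefficient of variation was 0.224. SE was taken as the size of the fold change over the root of F, and intervals are 95%. Each treatment's own value came from a fit with 3 groups. DESeq2 1.42.0 and limma 3.58.1 on log2(FPKM + 1) were alternatives, beside other scalings, filters, covariates and each library left out. List scores used a prior count of 2. R was 4.3.3. The method was run on counts simulated with the dispersions of this fit and known changes. That run does not bear on whether a gene differs in these data.

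The comparison, the 38 gene lists (860 genes, 826 tested) and the naming rule were chosen with earlier results of these data known. The rule names the 12 genes of smallest p in each direction with at least 1 CPM, leaving out predicted genes, clones and pseudogenes, the 2 of smallest p in each list, and a fixed set, App and Trem2 among them. A few genes the rule names are not reported here. Other genes in the text were chosen after their values were seen. Libraries of the same group differed by more than counting error in each pair (chi-square at least 13.1 per degree of freedom). The p-values of treated against saline set the difference between the arms against the spread between animals within them. In the pooled arm that spread includes any difference between the treatments. In 7013 genes tested (31.8%) the mean count was under 100, which limits precision.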

Additional observations from a re-analysis of the deposited data

Results flagged for a closer look

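Of 202 groups of values examined for a library apart from the rest, 8 were singled out, and chance alone would single out about 1 in 20. Each had a gap to its nearest neighbour above the 95% critical value of Dixon's test for its group size.

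In saline, Plxdc1 was at 23.8 CPM in animal 18, against 15.8 to 16.9 CPM in the other 3. Rubcn, a regulator of autophagy, was at 91.8 CPM in saline 18, against 86.6 to 87.1 CPM. Col25a1 was at 68.8 CPM in saline 19, against 58.8 to 59.6 CPM, and Grik4, a kainate receptor subunit, at 61.5 CPM in saline 32, against 50.4 to 51.4 CPM.

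Among the 9 treated libraries, Rubcn was at 78.7 CPM in ACLP-NT 53, against 83.6 to 87.6 CPM in the others. The other 3 were all in Aducanumab 56: Nxph4, a marker of deep cortical layers, at 0.172 CPM against 0.504 to 0.999 CPM, Tac1, a neuropeptide precursor, at 2.51 CPM against 4.17 to 6.77 CPM, and Rps24, a ribosomal protein, at 152 CPM against 162 to 171 CPM. Aducanumab 56 also had the lowest neocortex score of the 13 libraries, -0.52.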

How the results depend on the processing

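The count of genes past the adjusted threshold in treated against saline was 0 in edgeR with RLE or upper quartile scaling, without the filter, with genes of mean FPKM at or above 1, a robust fit, 3 groups in the fit, or the choroid plexus or neocortex score as a covariate (the last chosen after seeing the data, as was leaving out Aducanumab 50 and 58 together, also 0). DESeq2 called 23. With single libraries left out the count was 0 to 1, the 1 being Nav2 without saline 32. Between Aducanumab and ACLP-NT DESeq2 called 3, and the count was 0 to 1 with single libraries left out, 1 without ACLP-NT 49. Genes with all treated above all saline numbered 45 to 160 over single libraries left out (82, 86, 160 and 150 without saline 18, 19, 32 and 38), and those below 57 to 152 (121, 135, 152 and 128 without the same libraries, 112 without Aducanumab 58 and 81 without ACLP-NT 27). Leaving out a library can only keep or raise these counts, as a gene without overlap stays without it. From FPKM, with all libraries kept, they were 35 and 52. Some values changed sign, none of them past the threshold before: with the neocortex covariate Tac1 was at 0.16 and Olig2 at 0.016, with the choroid plexus covariate Igfbp2 was at -0.073 and Slc13a4 at -0.11, without Aducanumab 50 and 58 Hba-a2 was at -0.062 and Hbb-bs at -0.12, and over single libraries left out Hbb-bs ran from -0.022 to 0.32 and Tfeb from -0.089 to 0.024. The cause was not tested. No paired analysis was possible because the animal numbers of the 3 groups are all different. Depth limits the genes with a mean count under 100.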

Other observations

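Myeloid genes outside the lists were among the 51 genes with all treated libraries below all saline libraries. Chosen after their values were seen, they included Lair1, an inhibitory collagen receptor (25.7 ± 1.82 CPM, SD, in the 4 saline against 19.5 ± 2.66 CPM in the 9 treated libraries), Tbxas1, the thromboxane synthase (11.7 ± 0.664 against 8.63 ± 1.34 CPM), Cd180, a Toll-like receptor homologue (19.9 ± 1.15 against 13.2 ± 3.17 CPM), and Pld4, an endolysosomal nuclease (23.5 ± 0.590 against 18.9 ± 2.24 CPM). Vav1, Tlr6, Ly9, Wdfy4 and Rasal3 had log2 fold changes of -0.36, -0.39, -0.75, -0.47 and -0.36, again without overlap. Of the 51 genes, 6 were in the 4 microglial lists, which hold 85 of the 22065 genes tested (0.385%), and 10 were in any list (826 genes, 3.74%). Of the 42 genes with all treated libraries above, 3 were in any list.

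Hnrnpa3, an RNA-binding protein, had 2 levels with nothing between them. It was at 167, 160 and 167 CPM in saline 18, 19 and 38 and at 167 CPM in ACLP-NT 55, and between 7.02 and 14.7 CPM in the other 9 libraries, saline 32 among them at 9.02 CPM. DESeq2 called it, while its edgeR log2 fold change was -2.14 (SE 0.827). Nav2, a neuron navigator gene, was at 43.9, 44.6 and 44.4 CPM in saline 18, 19 and 38, at 78.4 CPM in saline 32 and between 67.3 and 74.5 CPM in treated libraries. Without saline 32 edgeR called it with an adjusted p of 4.59e-06. In both genes saline 32 sat with the treated libraries.

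Ighm, the constant chain of immunoglobulin M, stood at 27.4 ± 2.40 CPM in saline against 20.7 ± 3.18 CPM in treated libraries, a log2 fold change of -0.41 (SE 0.111). Of 22 lymphocyte genes 14 were tested, and Ighm was the 1 at an unadjusted p below 0.05. Lhx1 and Ms4a4a, both called by DESeq2, were at most 0.120 and 0.0566 CPM in saline and 0.192 to 1.21 and 0.0747 to 0.453 CPM in treated libraries, so they rest on few counts.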
